A study of Mus musculus with 2 samples.

Results

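The genes described here encode the subunits of Mediator. They were chosen by name: a gene was taken if a probe set named it alone and its symbol was Med followed by a number, with or without a final l, or was Cdk8, Cdk19 or Ccnc. This gave 32 of the 17097 genes that probe sets named alone, read by 62 probe sets. Another 2 probe sets that named Med20 together with Usp49 were left out, and Med18, the remaining subunit of the head, was not analysed here.

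Mediator is a large complex that carries the signal of activators bound at enhancers to RNA polymerase II at the promoter. Its core has a head and a middle part that contact the polymerase, a scaffold subunit that joins them, and a tail that many activators bind. A separable kinase module of a cyclin-dependent kinase, cyclin C, Med12 and Med13 docks on the core and, while bound, keeps the polymerase off it. Vertebrates have a second copy of Cdk8, Med12 and Med13, named Cdk19, Med12l and Med13l. Embryonic stem (ES) cells depend on Mediator, together with cohesin, for the expression of their pluripotency genes.

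The arrays were made from mouse ES cells kept without feeder cells on gelatin, in serum with the cytokine that maintains them. One culture, labelled control KD, carried a retrovirus with a control RNA sequence, and the other, labelled H2A.B KD, a retrovirus with a short-hairpin RNA directed at H2A.B, a short variant of histone H2A found at transcribed genes. Hairpins were expressed from a U6 promoter in a vector with a neomycin resistance gene, and both cultures were selected with G418 for 2 to 4 weeks. The labels number the knockdown sample 1 without saying what is numbered, and they name no clone or pool. Each group had 1 array, so there is no replicate error and no test, and every value below describes these 2 cultures. A difference is given as knockdown minus control on the log2 scale.

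No probe set named any of the 3 H2A.B genes (count 0), so the knockdown was not checked. All 9 ES cell markers with a value passed the level filter explained below, with a median difference of -0.01. Pou5f1 had a log2 intensity of 12.65 in control and 12.64 in knockdown cells, Sox2 differed by 0.03, Nanog by -0.09 and Gapdh by -0.02. The 9 markers ranged from -0.09 (Nanog) to 0.33 (Esrrb, with 11.14 in control and 11.47 in knockdown cells), and Klf4 differed by 0.16. Of 10 fibroblast or feeder markers 3 passed, with differences from 0.07 to 0.25. The log2 intensities of all 10 summed to 55.3 in control and 56.5 in knockdown cells. This sum is not an amount of RNA and includes 7 genes below the filter. The largest difference among the 10 was that of Twist2, below the filter with 3.21 and 3.78 (0.57). None of 5 endoderm and 3 trophectoderm markers passed (0 each), nor did 2 of 3 neural markers. Pax6, the other, had 9.66 in control and 8.88 in knockdown cells (-0.78). That is the brightest of its 4 usable probe sets, and the others are not described here. In bulk RNA, fewer cells of a type and less RNA per cell cannot be told apart.

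The deposited table has faults that touch some of the members. The knockdown column holds a series that rises in steps of 1 between rows 2054 and 4710, and the control column holds 1455 values identical to a value up to 20 rows above, all between rows 18185 and 33642. The rows before, between and after the repeats are called the first, the second and the third stretch. Both kinds of value were left out, which removed the second probe set of Med9 (deposited as 192 on the knockdown array) and the single probe set of Med25. The other 60 probe sets gave a value for 31 genes, of which each gene took that of its brightest probe set. Whether the other control values of the second stretch stand on their own rows could not be settled, which bears on every member read from it: Med8, Med10, Med12l, Med13l, Med14, Med15, Med16, Med30 and Cdk19. Across the probe sets of that stretch that are not repeats, the arrays correlated with r = 0.977, as in the third stretch (0.977) and below the first (0.992). The repeated values also correlated with the knockdown values of their rows (r = 0.992), so the correlation does not tell which values are in place. Their median absolute difference was 0.22, against 0.09 for the other values of that stretch, 0.04 in the first and 0.12 in the third. What this says of their place was not tested.

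A gene passed the level filter if the mean of both arrays was at or above 6.73, the median over all 16563 genes with a value. Of the 31 Mediator genes 28 passed. The genes below it were Med8, Med26 and Med12l.

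Mediator genes were at nearly the same level in both cultures, with the exception of Med13l, which was 2.42-fold lower in the knockdown. Of the 28 genes past the filter, 27 (96.4%) differed by less than 0.5 and 17 (60.7%) by less than 0.1. For comparison, 92.6% of all 8282 genes past the filter differed by less than 0.5 and 58.5% by less than 0.1. The median absolute difference was 0.072 over the Mediator genes and 0.073 over all genes. Levels this close were therefore not particular to Mediator. The count that reached 2-fold was 1 of 28, against 1.96% of all genes past the filter in either direction and 1.28% in the lower direction. In the higher direction it was 0 of 28, against 0.676%. Read against those shares, 1 call among 28 genes is not a result about the complex as a whole.

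**Figure D1:**
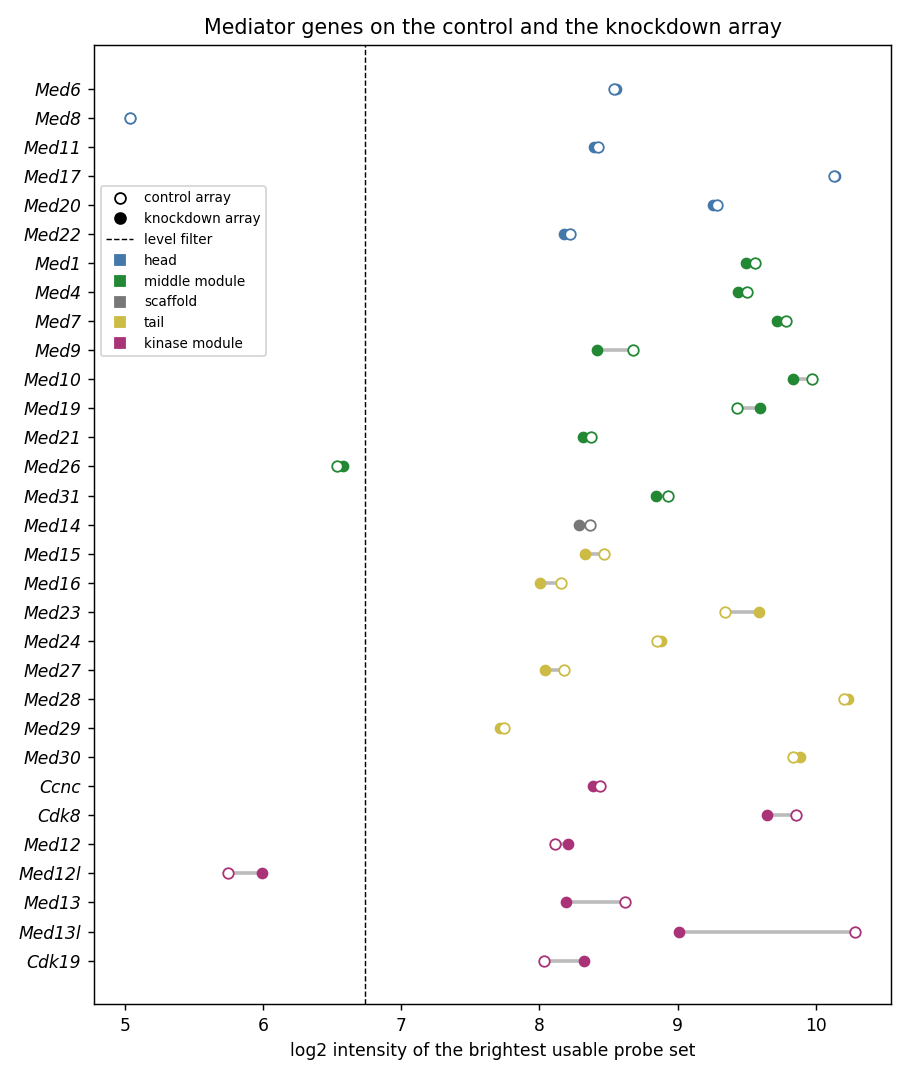
Log2 intensity (horizontal axis) of 31 Mediator genes on the control array (open circles) and the knockdown array (filled circles), 1 array each, coloured by the part of the complex; the dashed line is the level filter at 6.73. The circles lie close together for most genes, and the widest gap is that of Med13l, from 10.29 to 9.01.

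The differences leaned slightly below 0. Of the 28 genes past the filter 19 were lower in the knockdown, against 50.6% of all genes, and their median difference was -0.06 against -0.0016 over all genes. Without Med13l the median was -0.05. For single genes, the only spread available is that between probe sets of a gene. Its SD had a median of 0.05 over 2556 genes and of 0.06 over the 7 Mediator genes with several probe sets past the filter. Among those 7 it ran from 0.01 to 0.49 (Med13), and over all genes it reached 5.60 (Abl2). The probe sets of a gene were read on the same arrays, so this SD holds no variation between replicate cultures or arrays. It therefore gauges neither the difference of a gene nor the lean. No test of the lean was possible with 1 array per group.

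The head subunits, which touch the polymerase and the general factors, showed small differences, with a median absolute difference of 0.03 over the 5 genes past the filter. Med17, the central subunit of the head, had 10.13 in control and 10.14 in knockdown cells. Med6 had 8.54 and 8.56, and Med20, a subunit of the movable jaw of the head, 9.28 and 9.25. These 3 genes therefore differed by at most 0.03 in size. Med11 (-0.03) and Med22 (-0.04), which pair within the head, were as close. Med8 was below the level filter with 5.04 on both arrays, on its only probe set. The other probe sets of Med6, Med17 and Med20 differed by between -0.01 and 0.05.

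The middle part held 8 genes past the filter, with a median of -0.06. Of these 7 were lower in the knockdown, against 50.6% of all genes past the filter. Med1, the subunit that nuclear receptors bind, had 9.56 in control and 9.49 in knockdown cells, and its 4 other probe sets ranged from -0.07 to 0.02. Med7 (-0.07) and Med21 (-0.06), which form a long hinge, differed by much the same amount, as did Med4 (-0.06) and Med31 (-0.09). Med10 had 9.97 and 9.84 (-0.13). Med9, with 8.68 and 8.42, had the lowest difference of this part (-0.26), read from the third stretch on the only probe set left to it.

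Med19 was the exception in direction, with 9.43 in control and 9.60 in knockdown cells (0.17). Its probe sets of the first stretch differed by 0.07, 0.06 and -0.05, so its size rests on the brightest one. Med26, which recruits elongation factors, was below the filter with 6.53 and 6.58. Med14, the scaffold that runs through the whole core, had 8.37 and 8.29 (-0.08), whereas 0.01 and 0.23 were read from its dimmer probe sets.

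The tail held 8 genes past the filter, 4 lower and 4 higher, with a median of -0.0017. Med23, which binds activators downstream of growth factor signalling, had 9.34 in control and 9.59 in knockdown cells (0.25), the highest of the tail, on its only probe set. Med16 had 8.16 and 8.01 (-0.15), the lowest. Med15, the target of SREBP and Smad activators, had 8.47 and 8.33 (-0.13), but its 2 dimmer probe sets differed by 0.13 and 0.25, in the other direction. The differences of Med24 (0.03), Med28 (0.03), Med29 (-0.03) and Med30 (0.05) were within 0.1, and Med27 differed by -0.14.

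Med25, the tail subunit that viral and ETS activators bind, had no value in the main setting. Its only probe set read 9.004 in control and 9.60 in knockdown cells as deposited, a difference of 0.59 or 1.51-fold. The control value is identical to that of the row above, which names Myoz1, so it is uncertain whether it belongs to Med25. With repeated values kept, Med25 would be the second member past 1.5-fold, a size reached by 5.64% of all genes past the filter.

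The kinase module held both ends of the range of the members past the filter, -1.28 for Med13l and 0.29 for Cdk19, and its 6 genes past the filter had a median absolute difference of 0.25. Med13l, Cdk19, Med13 and Cdk8 were read from the second and the third stretch, where the median over all genes was 0.19, and the 5 head genes from the first, where it was 0.04, so module and place in the table cannot be told apart. Cyclin C (Ccnc), which activates both kinases, had 8.44 in control and 8.39 in knockdown cells, and its 5 probe sets all lay below 0, from -0.10 to -0.02. Med12, which joins the cyclin and kinase to Med13, had 8.11 and 8.21 (0.10). Neither of these partners shared by the paralogues differed by more than 0.10.

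On their brightest probe sets the kinase paralogues differed in opposite directions. Cdk8 had 9.86 in control and 9.65 in knockdown cells (-0.21) on its single probe set. Cdk19 had 8.04 and 8.32 (0.29) on its brightest probe set, read from the second stretch, but 7.96 and 7.93 (-0.03) on its other, nearly as bright, from the third. The direction of Cdk19 is therefore not settled by these arrays. Med12l, the copy of Med12, was below the filter with 5.74 and 5.99 (0.25), and its dimmer probe set differed by -0.18. The brightest one belongs to a repeated pair, and with both rows of such pairs left out the difference of Med12l was -0.18.

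Med13l and Med13 encode the alternative large subunits that link the kinase module to the core. Med13l had a log2 intensity of 10.29 in control and 9.01 in knockdown cells (-1.28), and its other probe set 8.16 and 7.08 (-1.07). Both probe sets were lower in the knockdown by more than 2-fold, and it was the only Mediator gene for which any usable probe set was. It was also one of 17 genes that were 2-fold lower with the level filter at the 75th percentile, a limit that leaves 4141 genes and at which 0.411% were called in this direction.

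Med13 did not share the size of that difference. Its brightest probe set had 8.62 in control and 8.19 in knockdown cells (-0.42), and the neighbouring probe set 5.78 and 5.31 (-0.46). Those 2 lie in the third stretch. Its probe sets of the second stretch had 7.26 and 7.53 (0.27) and 2.75 and 2.77 (0.02). With the median over its 4 probe sets the difference of Med13 was -0.20.

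**Figure D2:**
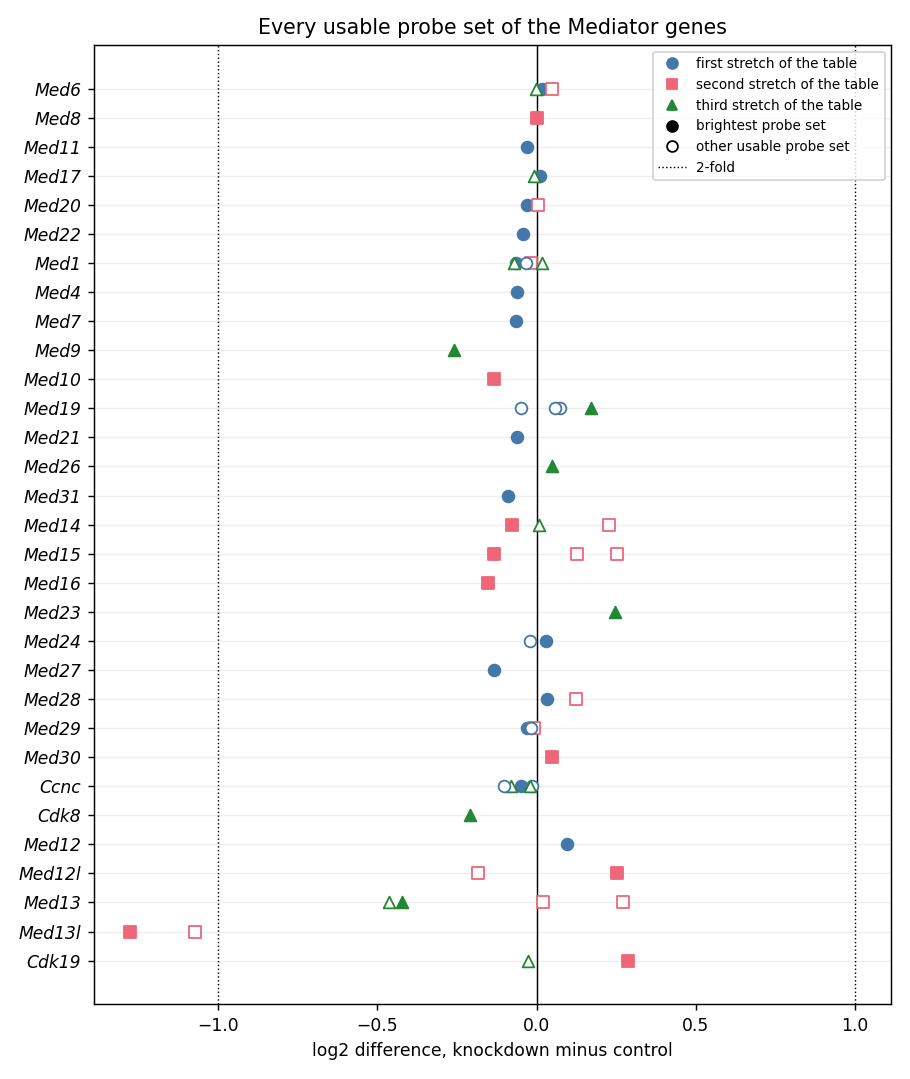
Log2 difference, knockdown minus control (horizontal axis), of all 60 usable probe sets of 31 Mediator genes; filled symbols are the brightest probe set of a gene, colour and shape give the stretch of the table, and dotted lines mark 2-fold. Both Med13l probe sets lie beyond -1, while the probe sets of Med13, Cdk19, Med12l, Med14 and Med15 lie on both sides of 0.

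Both Med13l probe sets lie side by side in the second stretch, where control values are repeated. Their own values belong to no repeated pair, but within 20 rows on either side 7 of 42 control values were repeats (16.7%, against 9.41% over the stretch). Among the 1695 genes past the filter that were read from this stretch, 2.71% were 2-fold lower, and 26 had a difference as low as that of Med13l. Of the genes read from the second stretch that were 2-fold lower, 33 had another usable probe set, and in 25 at least 1 of those was 2-fold lower too. The same count was 3 of 23 for genes read from the first stretch and 8 of 16 from the third. Agreement thus differed between stretches, and the first stretch, without repeats, holds the step series. For the genes read from the second stretch that were 2-fold lower, 10 of 12 other probe sets in the first stretch were 2-fold lower too. In the second stretch 12 of 18 were, that of Med13l among them, and in the third 15 of 24. Med13l has no probe set outside the second stretch, so agreement with another stretch could not be examined for it. The part of the repeats in its difference was not tested.

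The promoters of Med13l and its copy Med13 are shown because these genes had the lowest differences of the complex and serve as alternatives for the same place in it. Each sequence runs from 250 bases before to 50 bases after the start of transcription, from RefSeq on build GRCm38.p6, with every CpG in capitals. Med13l lies on chr5:118560469-118560768, plus strand, and Med13 on chr11:86357547-86357846, minus strand.
Med13l: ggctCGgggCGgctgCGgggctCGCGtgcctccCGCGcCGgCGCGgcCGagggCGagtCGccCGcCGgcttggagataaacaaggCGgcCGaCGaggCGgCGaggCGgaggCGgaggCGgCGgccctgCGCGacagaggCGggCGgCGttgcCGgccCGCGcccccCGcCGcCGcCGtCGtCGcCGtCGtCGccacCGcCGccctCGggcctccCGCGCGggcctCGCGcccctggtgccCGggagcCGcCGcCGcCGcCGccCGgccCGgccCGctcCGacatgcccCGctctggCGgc
Med13: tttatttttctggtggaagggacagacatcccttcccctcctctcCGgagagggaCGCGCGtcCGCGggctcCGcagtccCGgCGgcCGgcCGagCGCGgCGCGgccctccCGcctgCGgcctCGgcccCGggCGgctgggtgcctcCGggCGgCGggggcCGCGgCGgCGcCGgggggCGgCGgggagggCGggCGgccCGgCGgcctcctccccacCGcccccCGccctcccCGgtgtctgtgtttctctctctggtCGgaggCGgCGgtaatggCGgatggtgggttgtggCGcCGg

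Both promoters were rich in CpG. That of Med13l held 61 CpG in 300 bases, the most of the 27 Mediator promoters found in the table, and 16 of all 27025 promoters (0.0592%) held as many or more. Med13 followed with 43, and the other end was Med10 with 4. The median was 22 over the Mediator promoters, 22 over 6767 promoters of genes past the level filter and 7 over all promoters, so the Mediator promoters had the same median as those of genes that passed. The ratio of observed to expected CpG exceeded 0.6 in 23 of 27 Mediator promoters (85.2%), against 77.7% of those of genes past the filter.

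Short motifs were searched on both strands of the same windows, and none of the 3 contains another. The TATA motif TATAAA was found in 3 of 27 Mediator promoters (Med7, Med16 and Med28; 11.1%) and in 6.83% of those of genes past the filter. GGGCGG, the GC box, was found in 17 (63.0%, against 67.4%), both Med13l and Med13 among them. CCGGAA, a form of the site that ETS factors bind, was found in 12 (44.4%, against 31.5%) but in neither of those 2 genes. Other forms of that site were not searched. These matches describe letters and show no bound factor.

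**Figure D3:**
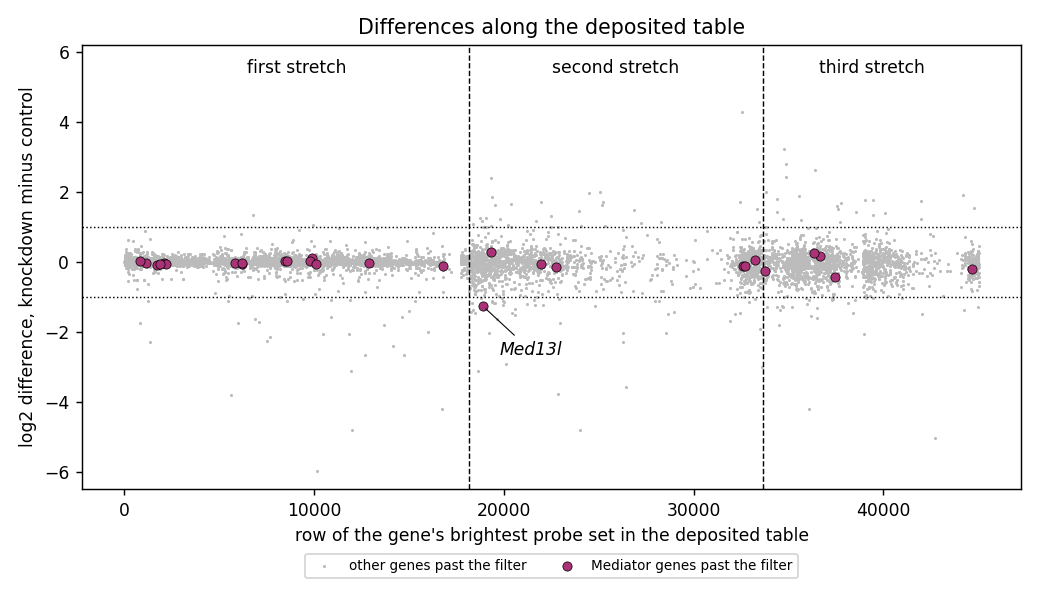
Log2 difference, knockdown minus control (vertical axis), of the 8282 genes past the level filter against the row of their brightest probe set in the deposited table; dashed lines separate the stretches, dotted lines mark 2-fold, and large points are the 28 Mediator genes. The 16 Mediator genes of the first stretch lie between -0.14 and 0.10, and the other 12 are spread more widely, as all genes are there.

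The width of the differences among Mediator genes followed their place in the table, as it did for all genes. The 16 read from the first stretch had a median absolute difference of 0.05, against 0.04 over the 4920 genes read there. For the 7 of the second stretch it was 0.13, against 0.19, and for the 5 of the third stretch 0.25, against 0.19. Med9, Cdk8, Med23, Med19 and Med13 were all read from the third stretch. In the first stretch 11 of 16 members lay below 0, against 47.7% of all genes; in the second 5 of 7, against 55.1%; and in the third 3 of 5, against 54.5%.

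Probe sets of one Mediator gene often differed in sign, and the share over all genes was not counted. Of the 15 genes with several usable probe sets, 4 had all of them on one side of 0: Ccnc, Med13l, Med28 and Med29. The other 11 had probe sets on both sides. Some of these signs rest on dim probe sets with differences near 0, such as those of Med17 (4.12 and 4.11) and Med24 (3.89 and 3.87). Only 7 Mediator genes had several probe sets past the filter. For 2 genes, Med13 and Med12l, the highest and lowest probe set lay over 0.4 apart. Of the 4, Med13l stood out by size, since the probe sets of the other 3 lay between -0.10 and 0.12.

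Genes of the machinery with which Mediator works were also mostly at similar levels in both cultures. Over all genes past the filter, 50.6% were lower, 1.28% by 2-fold, and 1.96% differed by 2-fold in either direction. These shares stand beside the counts of every list below. Of the 11 RNA polymerase II subunit genes, all past the filter, 8 were lower and 0 reached 2-fold, with a median difference of -0.05. Polr2a, the catalytic subunit that carries the tail phosphorylated during transcription, had 9.86 in control and 10.22 in knockdown cells (0.36). Polr2d (-0.11) was the next in size, and all 11 were read from the first stretch.

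The general factors, which place the polymerase at the start site, had 14 genes past the filter, with a median of -0.10. Of these 10 were lower, against 50.6% of all genes, and 0 by 2-fold. Ercc3, the translocase of TFIIH that opens the promoter, had 7.35 in control and 6.48 in knockdown cells (-0.86) on a single probe set of the second stretch. Gtf2b, which encodes TFIIB, had 9.09 and 8.80 (-0.29). For the 11 TFIID genes that passed, 5 were lower, 0 by 2-fold, and the median was 0.01, so near 0 that its sign changed with the setting (-0.0039 with lowess centring). Taf4, a scaffold of TFIID, had 8.20 and 7.49 (-0.71) in the third stretch and 8.04 and 7.15 (-0.89) on its other probe set in the first. Taf13 differed by 0.34.

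Cohesin and its loader bind with Mediator at active enhancers and promoters of ES cells. Their list, which also counted Ctcf, had 9 genes past the filter, 3 lower and 0 by 2-fold. Its median was 0.01 and became -0.03 with the median over probe sets. Smc3, a core ring subunit, had 10.85 in control and 10.39 in knockdown cells (-0.46), and its other probe set differed by -0.49. Pds5b, a regulator of the ring, differed by 0.15.

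The coactivator list also counted Cdk9, Ccnt1, Ccnt2 and Aff4. Of its 8 genes past the filter 5 were lower, against 50.6% of all genes, with a median of -0.01 (0.02 with the median over probe sets). Over all genes 1.28% were 2-fold lower, and 2.71% of those read from the second stretch. Of the 8 coactivator genes 1 was 2-fold lower, read from the second stretch. It was Ncoa2, a coactivator of nuclear receptors, with 8.69 in control and 7.51 in knockdown cells (2.28-fold). Its other probe sets differed by -1.17, -1.13 and -1.09. The last 2 were below the level limit: that of -1.13 in the second stretch (5.27 and 4.14) and that of -1.09 in the third (5.92 and 4.82). Ncoa2 was thus lower on all 4 of its usable probe sets.

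**Figure D4:**
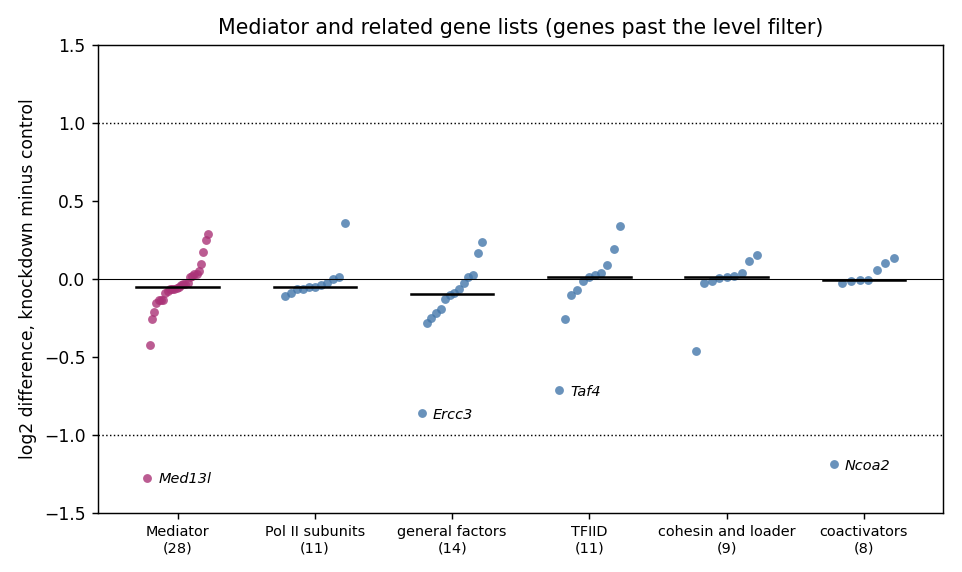
Log2 difference, knockdown minus control (vertical axis), of each gene past the level filter in Mediator (28 genes) and 5 related lists, sorted within a list; bars are medians and dotted lines mark 2-fold. Med13l and Ncoa2 are the genes beyond -1, and all 6 medians lie between -0.10 and 0.01.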

How the data were processed

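For each culture, cDNA made from 2 µg of total RNA with a T7-oligo(dT) primer was labelled and hybridised to Affymetrix arrays, per the labels' protocols. Per the submitters' processing notes, the authors used RMA (version not given in the sources used here); the deposited table states no scale, and they were used as log2 intensities because the control column runs from 0.801 to 14.5. The authors' deposited knockdown column also holds other values, 618 in all: 616 of the step series and 2 above 20. These and the 1455 repeated control values were left out; no normalisation was added. Gene names came from the platform's annotation: of 45118 probe sets it gives 28898 for 1 gene, 551 for several and 15669 for none; all 32 members matched a gene table of GRCm38.p6 by identifier, and 27 the promoter table, with the first start listed for each gene.

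A single array per group allows no test; 2-fold is a rule of size, and array number limits the precision. The members, lists and rules were chosen with earlier results of these data known. Named from the related lists are the genes that differed by 2-fold or, where there were none, the 2 with the largest difference. The procedure was tested on simulated data. Python 3.11.15, pandas 2.3.3 and statsmodels 0.14.6 (lowess, fraction 0.3) were used.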

Additional observations from a re-analysis of the deposited data

How the results depend on the processing

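No paired analysis was possible because each group has 1 array, and leaving out a replicate was not possible either. The Mediator median was below 0 in all 12 alternatives, from -0.0576 with lowess centring to -0.0023 with the third stretch alone, which has 11 members. The lean was not equally strong in all of them. With lowess centring 19 of 28 members lay below 0, against 52.6% of all genes. With the median over probe sets it was 15 of 26, against 51.7%. With the third stretch alone it was 6 of 11, against 52.8%. Med13l kept a 2-fold difference wherever it had a value, from -1.28 to -1.18. The count of members that reached the rule of size was 1 in the 9 alternatives fixed earlier. With the 1.5-fold rule among these it counts members at 1.5-fold, and in the others at 2-fold. The count at 2-fold was 0 without the second stretch, with the first stretch alone and with the third stretch alone, since Med13l then has no value. Settings by stretch were chosen after seeing the data. The count of all genes at 2-fold, 162, became 669 with no level filter, 20 at a 75th-percentile limit and 47 in the first stretch alone. With the 1.5-fold rule 467 genes reached 1.5-fold. The coactivator median was 0.0805 in the first stretch alone and that of the general factors -0.19 in the second alone. The TFIID median was also below 0 without suffixed probe sets (-0.0083), and with repeats kept, no level filter or the first stretch alone (-0.0025 each). The coactivator median was 0.025 at the 75th-percentile limit and without the second stretch, and the cohesin median -0.0255 in the third alone. Of 251 single Mediator differences under alternatives 14, of 10 genes, changed sign. Of these genes 4 had differed by at least 0.1: Med13 (-0.42) was at 0.27 in the second stretch alone, Cdk19 (0.29) at -0.03 without the second stretch and in the third alone, Med15 (-0.13) at 0.13 with the median over probe sets, and Med12l (0.25) at -0.18 without both rows of repeated pairs. Signal over background was not analysed, so low intensities are uncertain.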
